A study of Mus musculus with 4 samples.

Results

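The 10 genes described here, *Prdm1*, *Tfap2c*, *Nanos3*, *Dnd1*, *Ifitm1*, *Ifitm3*, *Kit*, *Dazl*, *Ddx4* and *Mael*, are genes of primordial germ cells (PGCs), the embryonic founders of sperm and eggs, from their specification to the later germ line. They were chosen by gene symbol, and all 10 were found among the 24347 genes of the data. The study behind the data asked how NEMEP, a micropeptide encoded by *Gm11549*, acts in mesendoderm differentiation. RNA-seq was carried out at day 3 on embryoid bodies (EBs), floating clumps of differentiating mouse embryonic stem cells (mESCs). The WT group held 2 samples of EBs from unedited mESCs of the 129/Ola strain. The promoter KO group held 2 samples of EBs from mESCs of the same strain with the *Gm11549* promoter deleted by CRISPR/Cas9 and a pair of guide RNAs, in clones grown from single sorted cells. EBs of both groups grew on bacterial plates by the submitters' notes, whereas the study's methods name an ultra-low attachment dish. The medium held serum but no LIF, the cytokine that keeps mESCs undifferentiated, and the EBs received no other treatment. Whether promoter KO 1 and promoter KO 2, as the samples are named here, come from separate clones is not stated in the sources used here, and a difference between clones and one between genotypes cannot be told apart.

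PGCs arise from the posterior epiblast around gastrulation, when BMP and WNT signals induce the transcription factors PRDM1, PRDM14 and TFAP2C, which silence the somatic programme. The RNA-binding proteins NANOS3 and DND1 then keep the cells alive, the KIT receptor carries survival and migration signals, and the small membrane proteins IFITM1 and IFITM3 mark PGC precursors and their surroundings. *Dazl*, *Ddx4* and *Mael* belong to a later step, when PGCs reach the gonad and methylated germ line promoters are activated. Several members are also transcribed elsewhere, *Tfap2c* in trophoblast, *Prdm1* in visceral endoderm, *Kit* in blood progenitors and mESCs, and the *Ifitm* genes widely in the epiblast.

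Expression is given in FPKM, which divides the fragments of a gene by transcript length and by library size, so that levels of different genes can be compared. Paired values are given for sample 1 and then sample 2 of a genotype. From the lowest values, at an assumed fragment length of 200 bases, the depth was estimated at about 24600000 and 21700000 fragments in WT and 21400000 and 20000000 in promoter KO. Fragment numbers of a gene given below assume this depth, this fragment length and its longest annotated transcript. For genes with several transcripts they are thus upper estimates at that fragment length, and another length would give other numbers. The targeted gene *Gm11549* (GRCm38 chr3:36515057-36521813, minus strand) was listed at 0.750 and 0.522 FPKM in WT, against 0 and 0.0659 in promoter KO. Both promoter KO samples were thus below both WT samples, as their labels say, although the gene was too low to be tested. The labels call the cells mesendoderm, and its markers *T*, *Mixl1*, *Eomes*, *Gsc*, *Foxa2* and *Lhx1* were above 1 FPKM in every sample. Their summed level was 719.8 and 842 FPKM in WT, against 143.2 and 300 in promoter KO, with *T* the most abundant. In all 6 of them the promoter KO samples were the lower ones, and *Mixl1*, *Gsc* and *Lhx1* passed the test. The number of them called lower was 1 without WT 1, 1 without the intensity trend and 5 without promoter KO 2.

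All 10 PGC genes had a value above 0 in every sample. *Prdm1*, *Tfap2c*, *Dnd1*, *Ifitm1*, *Ifitm3*, *Kit*, *Ddx4* and *Mael*, 8 of the 10, reached 1 FPKM in all 4 samples. *Dazl* reached it in both promoter KO samples only, and *Nanos3* in promoter KO 1 only. The members fell into 3 tiers by mean level over the 4 samples. *Ifitm1* and *Ifitm3* led with 139 and 98.4 FPKM, at percentiles 96.3 and 94.6 of the 18215 genes with a value above 0. *Dnd1* (14.8 FPKM), *Mael* (9.02), *Tfap2c* (8.38), *Ddx4* (8.08) and *Kit* (6.06) formed the middle tier, between percentiles 71.1 and 55.8. *Prdm1* (1.45 FPKM), *Dazl* (1.24) and *Nanos3* (0.794) made up the lowest, at percentiles 38.6, 37.2 and 33.0. Within each tier the sample values of neighbouring genes overlapped, so their order is not resolved, whereas no sample value of one tier reached into the next. In these bulk samples, fewer cells that express a gene and less RNA per cell cannot be told apart.

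**Figure D1:**
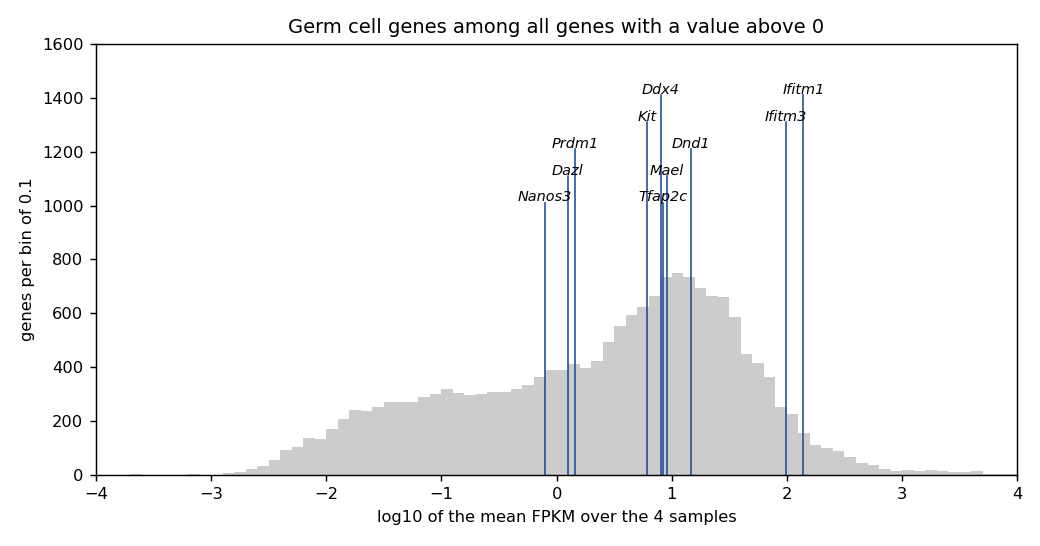
The histogram counts all genes with a value above 0 by the log10 of their mean FPKM over the 4 samples, and blue lines mark the 10 PGC genes. *Ifitm1* and *Ifitm3* sit in the upper tail, 5 members around the main peak, and *Prdm1*, *Dazl* and *Nanos3* near a mean of 1 FPKM.

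The comparison of promoter KO with WT EBs asks whether these genes changed when *Gm11549* lost its promoter. *Tfap2c* and *Dnd1* fell, by 3.36-fold and 2.60-fold in mean FPKM (n = 2 each), and no member was called higher. The mean of *Dazl* was 3.53-fold higher in promoter KO but missed the threshold (adjusted p = 0.0635). The other 6 tested members did not pass either, and *Nanos3* was below the filter. Tests were run with limma on log2(FPKM + 1) over 11941 genes, those with 1 FPKM or more in 2 samples or more, and called genes have a Benjamini-Hochberg adjusted p under 0.05. Of the 9 tested members, 2 were called lower and 0 higher, where 1.89% of all tested genes were called lower and 1.68% higher. At an unadjusted p under 0.05, 3 members lay lower and 2 lay higher, against 15.6% and 15.0% of all tested genes. Counted without a test, the promoter KO samples were both under the WT samples in 3 of the 10 members and both over them in 3, while 4 overlapped. Over all genes with a value above 0 these shares were 26.6% below and 29.6% above, so separation of the groups was about as frequent among the members as among all genes. The median log2 fold change of the tested members was 0.04, and that of all tested genes was 0.00. The sign of the members' median was not stable. It ran from −0.60 among the 7 members with a mean of at least 5 FPKM to 0.16 without WT 2, and it was also negative without WT 1 (−0.09), without promoter KO 1 (−0.08) and, barely, under quantile normalization. *Dazl* passed the filter through its promoter KO samples alone, so its inclusion among the 9 tested members already required a high value there.

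**Figure D2:**
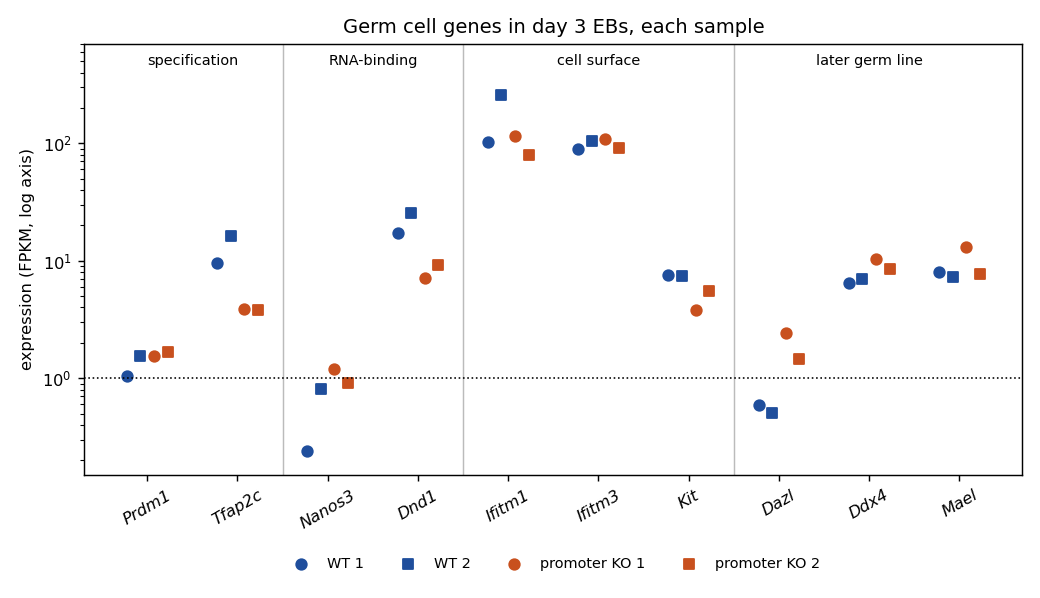
Each point is the FPKM of a PGC gene in a sample (log axis; blue WT, orange promoter KO; circles sample 1, squares sample 2), grouped by role, with a dotted line at 1 FPKM. The orange points lie below the blue ones for *Tfap2c*, *Dnd1* and *Kit*, and above them for *Nanos3*, *Dazl* and *Ddx4*.

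**Figure D3:**
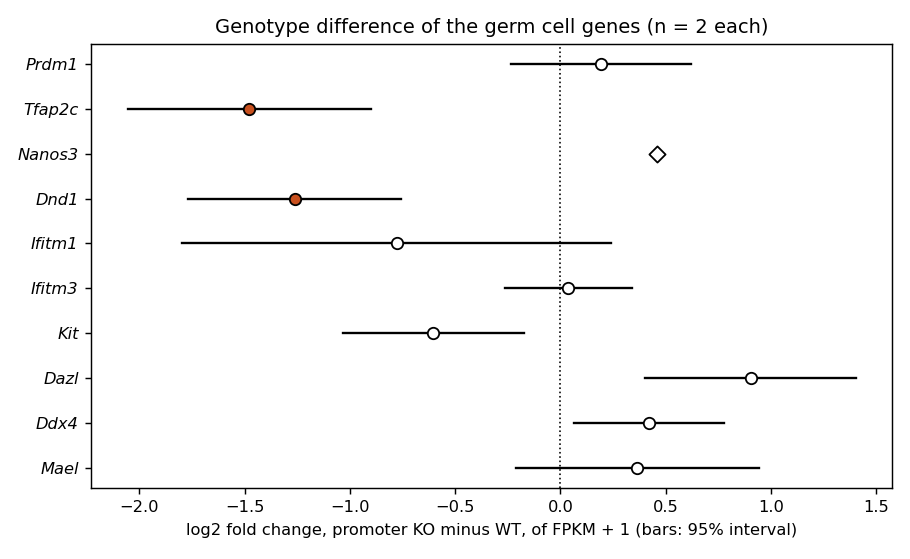
Points are log2 fold changes of FPKM + 1 (promoter KO minus WT, n = 2 each) and bars their 95% intervals from limma. Filled points, *Tfap2c* at −1.48 and *Dnd1* at −1.26, passed an adjusted p of 0.05, and the diamond is *Nanos3*, a difference of means for a gene below the filter.

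With any single sample left out, the log2 fold change stayed between −1.83 and −1.13 for *Tfap2c* and between −1.53 and about −1 for *Dnd1*, while the calls did not all remain. Without WT 2 or without promoter KO 1, limma called 0 of the 11941 genes (1875 and 2009 genes at an unadjusted p under 0.05), so no call named in the text, of a member or another gene, was made without either of them. Nor was any made without the filter, where limma called 0 of 18215 genes (4059 at an unadjusted p under 0.05), and without the intensity trend it called 82 genes and no member. A single gene compared by an exact permutation test of 2 samples against 2 cannot reach a two-sided p below 0.33, so each call leans on limma's pooling of variance over genes.

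Among the specification factors, *Tfap2c* (GRCm38 chr2:172549593-172558622, plus strand), which encodes the transcription factor AP-2 gamma, was at 9.60 and 16.2 FPKM in WT, against 3.87 and 3.83 in promoter KO. The WT samples differed from each other far more than the promoter KO samples did, and all of the WT values were above the promoter KO values. The means were 12.9 ± 4.70 FPKM in WT and 3.85 ± 0.0248 in promoter KO (SD, n = 2 each). On the log2(FPKM + 1) scale *Tfap2c* fell by 1.48 (standard error 0.236, 95% interval −2.06 to −0.90, limma adjusted p = 0.0422). The adjusted p was 0.142 without WT 2, 0.177 without promoter KO 1 and 0.0694 without promoter KO 2, and over all alternatives it ran from 0.0189 to 0.177, with a negative fold change in each. *Prdm1* (chr10:44437177-44528501, minus strand), the gene of the zinc-finger repressor BLIMP1, was at 1.04 and 1.56 FPKM in WT, against 1.55 and 1.67 in promoter KO. WT 1 was the lowest and the other samples were alike, so the groups overlapped. Its log2 fold change was 0.19 (95% interval −0.24 to 0.62, adjusted p = 0.483). *Prdm14*, which acts beside *Prdm1* in PGC specification, stayed below 1 FPKM, with 0.118 and 0.645 FPKM in WT, against 0.288 and 0.269 in promoter KO, which corresponds to 6.9, 33.1, 14.6 and 12.7 fragments at the estimated depths. Like *Tfap2c* and *Ifitm1* it was highest in WT 2.

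The other AP-2 genes were far lower than *Tfap2c* in WT EBs. *Tfap2a* was at 0.498 and 0.873 FPKM in WT 1 and WT 2 and at 0.423 and 0.390 in promoter KO 1 and promoter KO 2, and *Tfap2b* and *Tfap2d* did not exceed 0.0526 FPKM in any sample. *Tfap2e* was at 1.18 and 0.760 FPKM in WT and at 1.90 and 1.54 in promoter KO (log2 fold change 0.47, adjusted p = 0.149). *Tfap2c* and *Tfap2e* were thus the AP-2 genes that could be tested, and their fold changes had opposite signs.

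*Tfap2c* is also a trophoblast gene and *Prdm1* a visceral endoderm gene, so markers of those tissues were read beside them. Of 8 extraembryonic ectoderm and trophoblast markers, 4 were tested and 0 were called (1 lower and 1 higher at an unadjusted p under 0.05), although without WT 1 limma called 1 of them lower. Their summed level was 12.0 and 46.3 FPKM in WT, against 11.0 and 11.1 in promoter KO. As with *Tfap2c*, the sum was highest in WT 2, but WT 1 was close to the promoter KO samples. *Cdx2*, the most abundant of them, was at 5.77 and 25.4 FPKM in WT, against 2.49 and 5.51 in promoter KO. *Hand1*, at 1.27 and 11.3 FPKM in WT, against 0.792 and 0.678 in promoter KO, passed the filter through its WT samples alone. It had the lowest log2 fold change (−1.61, adjusted p = 0.192) and *Plet1* the highest (1.00, adjusted p = 0.131). *Cdx2* and *Hand1* made up most of the WT 2 sum, so its height there rests on few of the listed genes. *Tpbpa* was listed at 0 in all samples, and *Elf5* was listed at 0 in WT 1 and promoter KO 1 and did not exceed 0.0473 FPKM in the others. Of 8 visceral endoderm markers, 7 were tested, 0 were called lower and 5 higher, namely *Amn* (log2 fold change 2.56), *Cubn* (1.95), *Dab2* (1.86), *Ttr* (1.70) and *Sox7* (1.14). *Cubn* and *Sox7* passed the filter through their promoter KO samples alone, so high values there were already required for their calls. The number called higher was 4 without WT 1, 3 without promoter KO 2, 3 without the trend and 2 of 2 at a mean of at least 5 FPKM. The 8 markers summed to 12.2 and 6.65 FPKM in WT and to 43.7 and 54.3 in promoter KO, with *Dab2* the most abundant and none at 0 in any sample. The part of either marker list in the values of *Tfap2c* and *Prdm1* was not tested.

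Of the RNA-binding survival factors, *Dnd1* (GRCm38 chr18:36763671-36766214, minus strand), whose loss depletes PGCs and leads to testicular teratomas in 129 mice, was at 17.3 and 25.3 FPKM in WT, against 7.19 and 9.22 in promoter KO. Both WT values were well above both promoter KO values. *Dnd1* fell by 1.26 on the log2(FPKM + 1) scale (standard error 0.206, 95% interval −1.77 to −0.76, limma adjusted p = 0.0434), from 21.3 ± 5.69 to 8.20 ± 1.44 FPKM (SD, n = 2 each). The adjusted p was 0.198 without WT 2, 0.180 without promoter KO 1 and 0.0531 without promoter KO 2, with a range of 0.0100 to 0.198 over all alternatives and a negative fold change in each. Exons of *Wdr55* on the opposite strand cover 140 of the 2412 exon bases of *Dnd1*, and the strand setting of the authors' counting is not given in the sources used here. *Wdr55* itself was between 50.5 and 55.3 FPKM in all samples (log2 fold change 0.03, 95% interval −0.19 to 0.25, adjusted p = 0.865). A near-identical copy, *Dnd1-ps*, is not analysed here, so some fragments of *Dnd1* are uncertain. *Nanos3* (chr8:84173731-84185217, minus strand), which protects migrating PGCs from cell death, was at 0.242 and 0.810 FPKM in WT, against 1.21 and 0.917 in promoter KO. WT 1 was lowest and the promoter KO samples were above both WT samples, with WT 2 close to promoter KO 2. At the assumed fragment length these values correspond to at most about 3.2, 9.3, 13.7 and 9.7 fragments. Mean log2(FPKM + 1) was 0.46 higher in promoter KO, where replicates had a pooled SD of 0.29. Without the filter *Nanos3* did not pass either (adjusted p = 0.293), in the fit where limma called 0 genes. *Nanos1*, a relative with a neural role, was at 1.89 and 1.50 FPKM in WT, against 2.30 and 1.58 in promoter KO (log2 fold change 0.12, adjusted p = 0.696), and *Nanos2*, a spermatogonial gene, was listed at 0 throughout.

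*Kit* (GRCm38 chr5:75574916-75656722, plus strand), the receptor tyrosine kinase for stem cell factor, was at 7.52 and 7.44 FPKM in WT, against 3.81 and 5.48 in promoter KO. The WT samples were nearly equal and both promoter KO samples were below them, promoter KO 1 the furthest. The log2 fold change of −0.60 (standard error 0.176, 95% interval −1.04 to −0.17) did not pass the adjustment (limma adjusted p = 0.0905). Over the alternatives it ran from −0.82 without promoter KO 2 to −0.39 without promoter KO 1. *Kitl*, the gene of its ligand, stayed below 1 FPKM in every sample. Among related receptors, *Pdgfra* was at 2.19 and 6.78 FPKM in WT, against 1.07 and 1.84 in promoter KO (log2 fold change −1.04, adjusted p = 0.160), and *Flt3* and *Csf1r* did not exceed 0.128 FPKM. *Kit* is also a blood progenitor gene. Of 8 blood and endothelium markers, 4 were tested, 1 was called lower (*Lmo2*, log2 fold change −1.16, adjusted p = 0.0476) and 0 higher, and at an unadjusted p under 0.05 they counted 2 lower and 1 higher. *Lmo2* was not called with median centring, with quantile normalization, without the trend or at a mean of at least 5 FPKM. Nor was it called without promoter KO 2. Of the 4 tested, 1 passed the filter through its WT samples alone. Their sum was 12.2 and 27.0 FPKM in WT, against 12.4 and 10.4 in promoter KO, with *Lmo2* the most abundant and *Hbb-bh1* listed at 0 in all samples but WT 2. The sum was as high in promoter KO 1 as in WT 1, but it mixed markers that went both ways. Both promoter KO samples were below both WT samples in 2 of the 8 markers, as in *Kit*, and above them in 2. Over all genes with a value above 0 these shares were 26.6% and 29.6%. The part of these markers in the *Kit* values was not tested.

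*Ifitm1* (GRCm38 chr7:140967221-140969825, plus strand) and *Ifitm3* (chr7:141009586-141010770, minus strand) are neighbours, 39.8 kb apart, in the cluster of interferon-inducible transmembrane genes, and stretches of 212 bases of their transcripts are 89.6% identical. Their RefSeq promoters (GRCm38.p6, chr7:140967826-140968125 plus strand and chr7:141010695-141010994 minus strand), from 250 bases before to 50 after the start site, are shown because the genes had like levels but different spread between samples. Capitals mark matches on either strand to the interferon-stimulated response element, read as GAAA, any 2 bases and GAAA again, which 3.45% of the 32544 RefSeq promoters hold.
Ifitm1: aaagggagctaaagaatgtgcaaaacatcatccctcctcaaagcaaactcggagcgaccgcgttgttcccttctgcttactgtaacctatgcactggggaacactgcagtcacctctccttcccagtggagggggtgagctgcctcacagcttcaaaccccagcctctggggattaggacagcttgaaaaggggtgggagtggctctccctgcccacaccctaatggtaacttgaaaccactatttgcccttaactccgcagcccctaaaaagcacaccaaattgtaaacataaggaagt
Ifitm3: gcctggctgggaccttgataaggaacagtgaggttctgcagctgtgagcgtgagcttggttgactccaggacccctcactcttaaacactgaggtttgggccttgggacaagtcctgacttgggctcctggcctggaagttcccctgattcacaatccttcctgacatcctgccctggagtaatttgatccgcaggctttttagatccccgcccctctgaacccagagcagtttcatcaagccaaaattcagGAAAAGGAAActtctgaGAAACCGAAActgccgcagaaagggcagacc
The *Ifitm3* promoter held matches starting at bases 3 and 20 after the start site, and the *Ifitm1* window held none, which says only that these letters are not in it. The windows are not alike, since that of *Ifitm1* lies inside the gene as given above, and the bases around the more upstream start were not searched. Both windows had 5 CpG dinucleotides, against a median of 7 over all promoters.

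*Ifitm1* was at 103 and 259 FPKM in WT, against 114 and 79.3 in promoter KO. WT 2 stood apart, and WT 1 lay between the promoter KO samples, so the groups overlapped. The log2 fold change of −0.78 (standard error 0.416, 95% interval −1.80 to 0.24, limma adjusted p = 0.254) became −0.12 without WT 2, within a range of −1.44 to −0.12 over all alternatives. A near-identical copy, *Gm7676*, is not analysed here, so the level of *Ifitm1* is uncertain to that extent. *Ifitm3* varied little between samples, at 88.7 and 105 FPKM in WT, against 108 and 91.4 in promoter KO. The groups interleaved, and the 95% interval of its log2 fold change of 0.04 ran from −0.26 to 0.34 (adjusted p = 0.858). Its sign turned under quantile normalization and without WT 1 or promoter KO 1, with values from −0.09 to 0.16. *Ifitm2*, which lies in the same cluster and holds 1 match to the same motif, was the most abundant of the family, at 362 and 441 FPKM in WT, against 308 and 309 in promoter KO (log2 fold change −0.37, adjusted p = 0.0876). Both promoter KO samples were below both WT samples. Exons of *Ifitm2* overlap those of *Gm45717* on the same strand, which is not analysed here, so its level is uncertain to that extent. *Ifitm5*, *Ifitm7* and *Ifitm10* stayed below 1 FPKM, and *Ifitm6* was listed at 0 throughout.

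*Dazl*, *Ddx4* and *Mael* stand for the later germ line genes, which in early embryos are held silent by promoter DNA methylation and by a Polycomb complex that contains the DNA-binding proteins E2F6, MGA and MAX. The 3 genes were not all silent in WT EBs. *Dazl* stayed below 1 FPKM there, whereas *Ddx4* (6.45 and 7.05 FPKM) and *Mael* (7.99 and 7.26 FPKM) were in the middle tier of the members. The RefSeq promoters of the 3 genes, taken as for the *Ifitm* genes, lie at GRCm38.p6 chr17:50293571-50293870 (*Dazl*), chr13:112652261-112652560 (*Ddx4*) and chr1:166238695-166238994 (*Mael*), all on the minus strand. They are shown because the 3 genes shared a direction of difference, although limma called none of them and the groups overlapped in *Mael*. The means of *Prdm1* and *Nanos3* also lay higher in promoter KO, so the direction is not particular to the 3 genes. Capitals mark matches on either strand to CACGTG, the E-box to which MGA and MAX bind, and GGCGGGA, the E2F6 motif, which reads TCCCGCC on the other strand.
Dazl: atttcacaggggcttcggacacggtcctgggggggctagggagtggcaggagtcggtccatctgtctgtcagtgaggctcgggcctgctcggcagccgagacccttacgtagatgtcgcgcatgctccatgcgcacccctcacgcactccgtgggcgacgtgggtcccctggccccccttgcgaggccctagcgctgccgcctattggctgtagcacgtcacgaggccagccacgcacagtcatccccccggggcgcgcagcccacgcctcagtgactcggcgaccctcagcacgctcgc
Ddx4: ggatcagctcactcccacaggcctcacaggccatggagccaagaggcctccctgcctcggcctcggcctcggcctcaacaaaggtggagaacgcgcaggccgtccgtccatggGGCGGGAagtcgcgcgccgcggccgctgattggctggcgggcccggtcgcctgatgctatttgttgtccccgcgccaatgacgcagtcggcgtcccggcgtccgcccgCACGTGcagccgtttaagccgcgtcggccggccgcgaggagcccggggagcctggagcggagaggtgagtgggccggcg
Mael: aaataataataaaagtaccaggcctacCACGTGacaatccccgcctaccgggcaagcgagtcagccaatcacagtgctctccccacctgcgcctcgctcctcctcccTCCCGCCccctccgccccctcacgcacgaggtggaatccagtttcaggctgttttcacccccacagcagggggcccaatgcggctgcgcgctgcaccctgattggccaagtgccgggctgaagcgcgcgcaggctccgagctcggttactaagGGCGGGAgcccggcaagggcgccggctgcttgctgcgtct
An E-box was found in 7.17% of all RefSeq promoters, the E2F6 motif in 11.4% and both in 1.19%. Counted from the start site, *Ddx4* held an E-box at −29 and the E2F6 motif at −137. *Mael* held an E-box at −223 and the E2F6 motif at −143 and 11, whereas neither was found in the *Dazl* window. All 3 promoters were dense in CpG, with 28 (*Dazl*), 38 (*Ddx4*) and 24 (*Mael*) against an upper quartile of 20 over all promoters. Promoters of 8 members were matched at their RefSeq start sites, all but *Tfap2c* and *Dnd1*. Of these members, 2 held an E-box, 3 the E2F6 motif and 1 the interferon motif. These are counts of genes, and *Kit* has more than 1 promoter there, whereas the shares are of promoters.

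*Dazl* (GRCm38 chr17:50279395-50293636), an RNA-binding translation regulator needed for germ cell commitment, was at 0.591 and 0.508 FPKM in WT, against 2.43 and 1.45 in promoter KO. The promoter KO samples were the higher ones, and the WT samples were nearly equal. At the assumed fragment length the values correspond to at most about 40.4, 30.7, 144.3 and 80.6 fragments. Its log2 fold change was 0.90 (standard error 0.205, 95% interval 0.40 to 1.40) and did not pass the adjustment (limma adjusted p = 0.0635). As a ratio of mean FPKM with no pseudocount the log2 value was 1.82, since a pseudocount of 1 understates the change of such low genes. *Ddx4* (chr13:112598333-112652475), the gene of the RNA helicase known as mouse VASA homologue, was at 6.45 and 7.05 FPKM in WT, against 10.4 and 8.43 in promoter KO. The groups did not overlap, but the log2 fold change of 0.42 (standard error 0.145, 95% interval 0.07 to 0.78) missed the threshold as well (adjusted p = 0.124). *Mael* (chr1:166201201-166238747), which acts in transposon silencing by piRNAs, was at 7.99 and 7.26 FPKM in WT, against 13.1 and 7.69 in promoter KO. Promoter KO 1 stood apart and promoter KO 2 lay between the WT samples, so the groups overlapped. Its log2 fold change of 0.36 (95% interval −0.21 to 0.94, adjusted p = 0.334) became 0.01 without promoter KO 1. In all 3 genes promoter KO 1 was the highest sample.

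Relatives of these genes were read too. *Boll*, of the *Dazl* family, was at 0.530 and 0.524 FPKM in WT, against 1.28 and 0.978 in promoter KO, and *Dazap1*, whose product binds DAZ proteins, showed a log2 fold change of −0.24 (adjusted p = 0.105). *Ddx3x*, a helicase related to *Ddx4*, had one of 0.11 (adjusted p = 0.327). Its Y-linked counterpart *Ddx3y* rose, from 6.57 and 6.14 FPKM in WT to 11.6 and 11.8 in promoter KO (log2 fold change 0.79, adjusted p = 0.0389). It was the only called gene among the 19 relatives of the members, of which 7 were tested, and none was called with any single sample left out or without the trend.

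Among 8 naive pluripotency markers, genes of the mESC state that precedes differentiation, all 8 were tested and 0 were called by limma, while at an unadjusted p under 0.05 they counted 5 higher and 0 lower. Without promoter KO 2 limma called 2 of them higher. Their sum was 50.9 and 108.4 FPKM in WT, against 216 and 119.9 in promoter KO, with *Klf2* the most abundant and none at 0. As for *Dazl*, *Ddx4* and *Mael*, promoter KO 1 was the highest sample, and the part of these markers in the values of the 3 genes was not tested. Their log2 fold changes ran from 0.37 (*Tbx3*, adjusted p = 0.687) to 2.17 (*Nr0b1*, adjusted p = 0.0583).

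A wider list of 35 later germ line genes, of meiosis, piRNA silencing and oocyte or spermatogonial control, held 34 genes of the data, of which 15 could be tested, 2 of these through the promoter KO samples alone. None was called by limma, and an unadjusted p under 0.05 was reached by 2 lower and 7 higher genes. Without promoter KO 2, limma called 2 of them higher. The median log2 fold change was 0.44, against 0.00 over all tested genes, and was 0.26 without promoter KO 1, 0.23 without a filter and 0.05 among the 4 genes with a mean of at least 5 FPKM. As in *Dazl* and *Ddx4*, the promoter KO samples were the higher ones without overlap in 19 of the 34 genes, and the lower ones in 3, beside the shares of 29.6% and 26.6% over all genes. *Sycp3*, a synaptonemal complex gene and the most abundant, was at 47.9 and 58.3 FPKM in WT, against 44.2 and 38.9 in promoter KO (log2 fold change −0.34, adjusted p = 0.137). The lowest fold change was that of *Tdrd5* (−0.78, adjusted p = 0.109) and the highest that of *Fkbp6* (1.27, adjusted p = 0.212). *Fkbp6* was at 7.35 FPKM in promoter KO 1 and at most 1.04 in the other samples. It passed the filter through its promoter KO samples alone, so its test already required high values there. E-boxes stood in the promoters of 12 of the 30 listed genes whose RefSeq promoters were searched here, and the E2F6 motif in 2. Some of these genes have several promoters there, so these counts of genes cannot be set beside the shares of promoters given above.

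Repressors that act on such promoters were all expressed, and 19 of 19 were tested, with 0 called lower and 2 higher. *Dnmt3l*, the cofactor of de novo DNA methylation, rose from 62.0 and 54.8 FPKM in WT to 319 and 157 in promoter KO (log2 fold change 1.92, limma adjusted p = 0.0422). The study names it, beside *Esrrb* and *Utf1*, as a pluripotency gene that did not decline in promoter KO EBs. *Dnmt3a*, the gene of a de novo methyltransferase, rose from 28.8 and 23.6 to 50.6 and 42.9 FPKM (log2 fold change 0.81, adjusted p = 0.0442). The number called higher was 0 without WT 1, 0 without the trend and 1 without promoter KO 2. The median log2 fold change of the 19 genes was 0.15, and 0.26 without WT 1. As with *Dazl*, *Ddx4* and *Mael*, promoter KO 1 was the highest sample of both, and a relation between them was not tested.

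The signals upstream of *Prdm1* and *Tfap2c* were read from 18 genes, most of them of BMP and WNT signalling, of which 17 were tested, 2 were called lower and 0 higher. *Msx1*, a BMP target, was at 29.9 and 57.7 FPKM in WT, against 9.78 and 13.3 in promoter KO (log2 fold change −1.78, limma adjusted p = 0.0467). *Smad1*, a BMP signal transducer, was at 17.2 and 24.4 FPKM in WT, against 9.43 and 10.5 in promoter KO (log2 fold change −0.98, adjusted p = 0.0482). In both, as in *Tfap2c* and *Dnd1*, WT 2 was the highest sample. Limma called 4 of the list lower without WT 1, 3 without promoter KO 2 and 1 with quantile normalization, but 0 with median centring, without the trend and at a mean of at least 5 FPKM, where *Msx1* and *Smad1* were still tested. The list's median log2 fold change was −0.23, but −0.48 without WT 1, and it shares *T* with the mesendoderm markers, whose median was −2.26. The part of these lists in the lower *Tfap2c* and *Dnd1* values was not tested.

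Of 16 other genes used to recognise early germ cells, 13 were tested (1 through its promoter KO samples alone), 1 was called lower and 1 higher, and their median log2 fold change was 0.20 (0.02 without a filter, 0.33 without WT 1). The counts were 1 lower and 0 higher without WT 1, 0 and 2 without promoter KO 2, 0 and 1 with median centring or quantile normalization, and 0 and 0 without the trend or at a mean of at least 5 FPKM. *Cxcr4*, the receptor that guides migrating PGCs and also a gene of mesendoderm, was at 4.74 and 10.8 FPKM in WT, against 1.41 and 0.901 in promoter KO (log2 fold change −1.94, limma adjusted p = 0.0472). *Tdh*, a threonine dehydrogenase abundant in mESCs, was at 37.3 and 42.0 FPKM in WT, against 157 and 87.9 in promoter KO (log2 fold change 1.55, adjusted p = 0.0440). *Cxcr4* had the sample order of *Tfap2c* in that WT 2 was highest, and *Tdh* that of *Dazl* in that promoter KO 1 was.

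**Figure D4:**
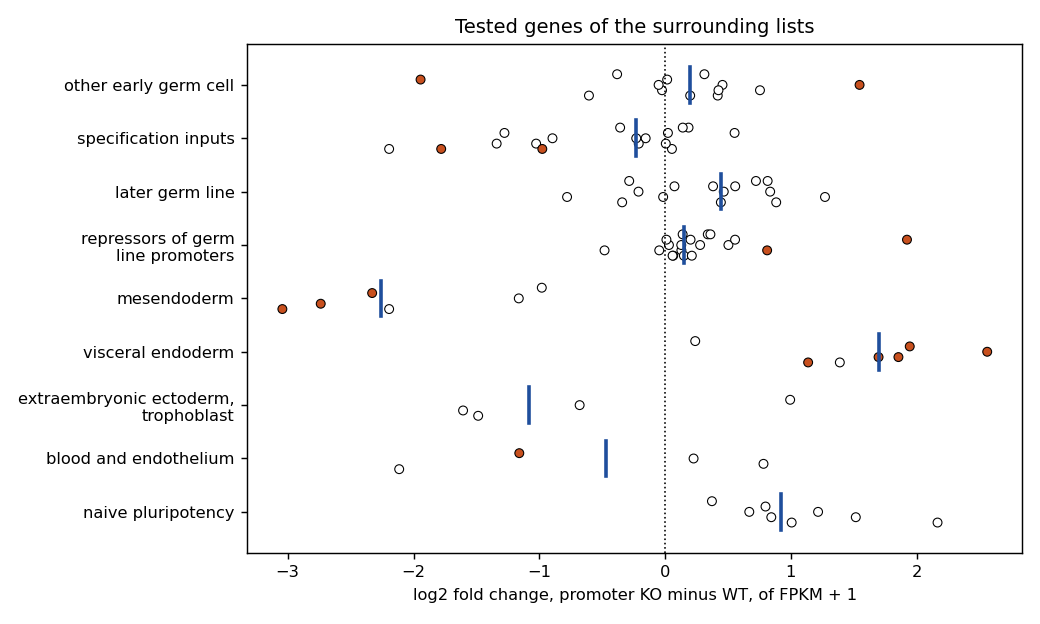
Each circle is a tested gene of the lists read beside the PGC genes, at its log2 fold change of FPKM + 1 (promoter KO minus WT, n = 2 each), with blue bars at list medians and filled circles at an adjusted p under 0.05. The medians run from −2.26 (mesendoderm) to 1.70 (visceral endoderm), and later germ line genes have one of 0.44 (0.05 to 0.55 over the alternatives) with no filled circle.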

How the data were processed

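RNA-seq of day 3 EBs was deposited as 1 table per sample for 2 WT and 2 promoter KO samples. The labels give genotype and replicate number, and the study calls its samples biologically independent. The deposited values were taken as FPKM made by the authors with Cufflinks. The submitters' processing notes name HISAT2 2.1.0, Cufflinks, Cuffnorm and mm10, whereas the study's methods name TopHat, Cufflinks and Cuffdiff with GENCODE and call the unit RPKM. Both units are already scaled for length and library size, and no reads were analysed. Of the 24347 gene rows, 27 symbols read as dates and 2 are listed more than once.

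Here log2(FPKM + 1) was fitted with limma 3.58.1 in R 4.3.3 (genotype term, intensity trend) after the filter of 1 FPKM in 2 of 4 samples, with Benjamini-Hochberg adjustment over all tested genes, and the procedure was tested on simulated data. Alternatives were a pseudocount of 0.1, no filter, a mean of at least 5 FPKM, no trend, median centring, quantile normalization, the replicate number as a block, each sample left out, and the ratio of means. Near-identical copies had at least 95% identity over at least 200 bases in BLAST 2.17.0, with gene coordinates from GENCODE for GRCm38. Depth was estimated from the value of 1 fragment in genes with a single transcript, and the fragments of a member were computed with its longest transcript.

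The text names all members, their relatives, the targeted gene, the mesendoderm markers and, from each other list, the called genes or, where there were none, the most abundant tested gene and those with the lowest and highest fold change. *Wdr55*, *Kitl*, *Tpbpa*, *Elf5* and *Hbb-bh1* are named besides these, after their values were seen. The members and lists were chosen with earlier results of these data known.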

Additional observations from a re-analysis of the deposited data

How the results depend on the processing

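The number of genes called in limma moved with most settings, and the cause was not tested. Of all tested genes, 427 were called (226 lower, 201 higher). The counts were 0 (0 lower, 0 higher) without a filter, where 4059 of 18215 genes had an unadjusted p under 0.05, 203 (108 and 95) at a mean of at least 5 FPKM, 82 (27 and 55) without the trend and 283 (126 lower) with median centring. Leaving out a sample, whose partner was then assumed to vary like the other genotype, gave 0 to 486 genes (0 to 248 lower, 0 to 238 higher).

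Of the members, 2 were called, 0 without a filter, 0 without the trend and 0 to 2 with a sample left out, *Tfap2c* and *Dnd1* remaining only without WT 1. Of the other listed genes 16 were called, against 0 without a filter, 8 at a mean of at least 5 FPKM, 4 without the trend and 0 to 17 with a sample left out. Of the single member values under alternatives, 92 kept their direction but not always their size, and those of them with a test in both fits kept their side of the threshold, 10 were calls lost in the same direction, 1 was a call gained and 5 were other moves, of *Ifitm3* in sign and of *Nanos3* and *Dazl* in the ratio of means. Among the 92, *Ifitm1* went from −0.78 to −0.12 without WT 2, *Mael* from 0.36 to 0.01 without promoter KO 1 and *Prdm1* from 0.19 to 0.03 without WT 1.

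With the replicate number as a block, 1202 genes were called (667 lower, 535 higher), among them all 427, and 28 of the other listed genes. *Dazl* then passed (adjusted p = 0.0436, range 0.0436 to 0.269). The correlation of same-numbered samples' deviations was 0.0348, so no pairing beyond the shared number was seen, and it is not used.

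*Nanos3* had the fewest estimated fragments of the members, 3.2 to 13.7 a sample.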
